A study of Mus musculus with 16 samples.

Results

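The regions described here are the c-Jun peaks on chromosomes 1 to 19 in mouse embryonic stem cells (ESC) in which c-Jun had been switched on for 36 h. They are all autosomal rows of the authors' peak list, 3095 of 3100 c-Jun peaks, and no measured value was used to choose them. The cells were labelled as an OG2 ESC line at passage 5 (OG3ES in brackets) that carries a doxycycline-inducible c-Jun, and chromatin was precipitated with an antibody against c-Jun. The only other peak list of the study, used here for comparison, came from OG2 embryonic fibroblasts (MEF) at passage 2 on day 3 of reprogramming with Sox2, Klf4, c-Myc and c-JunDN, and holds 1284 autosomal peaks of 1340. The labels give a mixed 129SVJ, C57B6 and CBA background, with a CBA fraction that differs between samples, and do not say whether the inducible line is 1 clone. The antibody of the c-JunDN sample is named c-JunDN in one label and c-Jun in another. The study also holds 13 RNA libraries and an input sample of the induced ESC, which was not analysed here. Each list comes from 1 sample, so no difference below has a replicate check, and peaks within a list are not replicates.

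c-Jun is a subunit of AP-1, a family of basic leucine zipper transcription factors that bind DNA as dimers, with another Jun protein or with a Fos or ATF partner. AP-1 sites lie in promoters and, more often, in distant enhancers of genes for growth, matrix and migration. A peak is a stretch of genome with more precipitated fragments than the peak caller took as its background. c-JunDN is a dominant-negative form of c-Jun.

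In the RNA libraries of the same labelled cells, Jun was higher where c-Jun or c-JunDN had been given. Jun stood at 2205 CPM (counts scaled to the library total) in the induced line, 20.2 CPM in the same line without doxycycline and 26.6 CPM in wild-type ESC. All 7 ESC markers examined were present after induction, at lower levels than without doxycycline. Pou5f1, which encodes Oct4, stood at 494.4 CPM against 1575 CPM, and Esrrb, a nuclear receptor of naive ESC, at 44.5 CPM against 472.3 CPM. In the reprogramming cells Jun was at 376.6 CPM with c-JunDN and 71.2 CPM with the control vector DR. These values are per gene and cannot tell c-JunDN from full-length or endogenous Jun. These libraries held between 2322922 and 12173100 expected counts.

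Most c-Jun peaks were short, and few had high scores. The score is the authors' value per peak. Its scale is not given in the sources used here, and higher values rank a peak higher. The median score was 66.8, with the middle 50% of peaks between 57.1 and 85.7. The lowest score was 50.01, and 1063 peaks (34.3%) scored under 60. The c-JunDN list started at nearly the same value, 50.04. Whether lower-scoring peaks were cut from both lists is not given in the sources used here. Only 457 peaks (14.8%) reached 100 and 25 reached 200. The median width was 419 bp, with the middle 50% between 368 and 482 bp. The labels give sonicated fragments of 100 to 500 bp, and 2473 peaks (79.9%) were no wider than 500 bp. Together the autosomal peaks covered 1347524 bp.

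A pair of regions stood far above all others in score. The peak at chr3:34549318-34550375 and the peak at chr4:55542620-55543907 (build mm9) carried the same score of 3100, the next highest being 449.9. They were also the widest peaks of the list, at 1058 and 1288 bp. The chromosome 3 peak was alone, with its nearest c-Jun peak 84232 bp away. The chromosome 4 peak had a neighbour whose centre was 1287 bp away, and belongs to the largest group of peaks described below. Neither overlapped a peak in the c-JunDN list used here, from whose names 176 numbers are missing. The equal score leaves the order of the pair unknown, and whether 3100 is a ceiling of the score was not tested. Whether the fragments under these peaks came from the genomic locus or from introduced DNA of the same sequence, such as plasmid or transgene, was not tested either.

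The other peaks among the 10 highest scores lay on 7 other chromosomes. The peak at chr17:66310715-66311658 scored 449.9 over 944 bp and that at chr16:10754430-10755134 scored 329.4 over 705 bp. On chromosome 15, chr15:61820895-61821479 scored 289.6 and chr15:61818987-61819845 scored 267.5, with their centres 1771 bp apart. For this pair, too, genomic and introduced DNA were not told apart. The remaining members were chr10:76708968-76709581 (score 285.6), chr14:76678526-76679282 (267.5), chr2:71481939-71482602 (263.7) and chr1:153323250-153323501 (256.1). Of these 10 peaks, 5 had another peak within 10 kb of their edge, against 439 of all 3095 autosomal peaks (14.2%). The chromosome 15 peaks were each other's neighbour and both count among the 5.

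At the other end, the lowest score belonged to chr1:137564884-137565299, at 50.01. The peaks at chr2:47733492-47733872 (50.03), chr3:37501048-37501375 (50.08), chr17:31446551-31446878 (50.08) and chr11:115997423-115997698 (50.09) came next. Their widths, 276 to 416 bp, lay below the median of the list.

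Wider c-Jun peaks scored higher. In 4 classes of near-equal size ordered by score, the median width rose from 368 bp in the lowest class to 400, 432 and 492.5 bp in the highest. Across the 3095 peaks Spearman's rho between score and width was 0.53, and it was 0.53 without the 10 highest scores. Peaks of 1 library share its depth, so this describes the list and carries no test. The c-JunDN list had no such gradient. Its peaks had a median width of 143 bp, the class medians ran from 137 to 151 bp, and rho was 0.03.

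**Figure D1:**
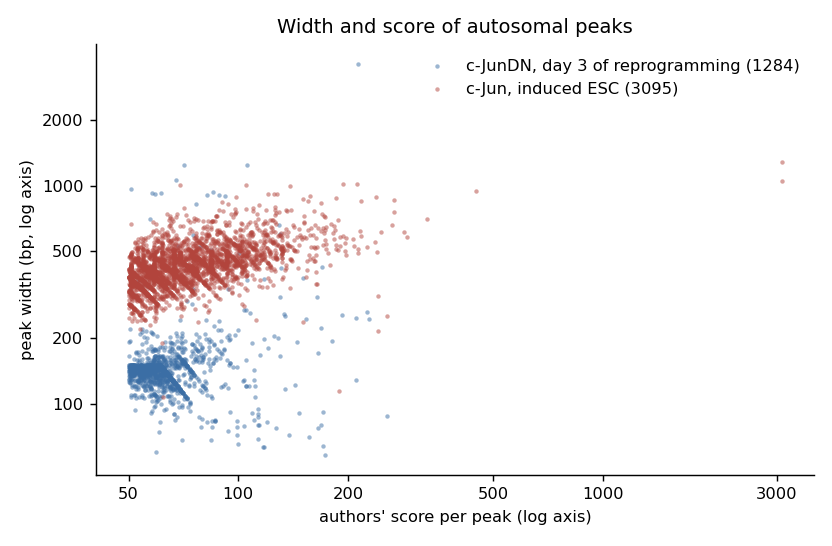
Width in bp against the authors' score for each autosomal peak, both on log axes, with c-Jun peaks of induced ESC in red and c-JunDN peaks of day 3 in blue. The c-Jun cloud centres on 419 bp and rises with score, the c-JunDN cloud centres on 143 bp, and 2 c-Jun peaks stand alone at a score of 3100.

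A few high-scoring c-Jun peaks broke this relation. Of the 457 peaks with a score of at least 100, 9 (1.97%) were narrower than 329 bp, the width below which 10% of all c-Jun peaks fall. This set was chosen after the values were seen. Of these 9, 4 lay side by side on chromosome 1 and 1, chr4:55540959-55541174 (216 bp, score 241.7), lay next to the widest peak of the list. The narrowest of them, chr9:5952534-5952647, was 114 bp wide with a score of 188.7, and no other c-Jun peak lay within 7.46 Mb of its centre. It is the second narrowest autosomal peak, after chr18:74520559-74520665 (107 bp, 62.2). The others among the 5 narrowest were chr19:29077661-29077850 (190 bp, 61.9), the chromosome 4 peak just named, and chr10:119964121-119964340 (220 bp, 53.9). Besides the regions on chromosomes 3 and 4 at the highest score, the widest were chr4:32337384-32338408 and chr6:31050050-31051074, each 1025 bp with scores of 212.4 and 193.6, and chr19:9057154-9058163, 1010 bp with a score of 105.

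Many peaks carried exactly the same score. The 3095 peaks held 1851 distinct scores, and 1730 peaks (55.9%) shared theirs with at least 1 other. The score 58.65 occurred 74 times, on all 19 autosomes, in peaks of 251 to 537 bp. The score 50.8 occurred 70 times and 66.83, the median of the list, 56 times. In the c-JunDN list 703 peaks (54.8%) shared a score. Peaks with tied scores cannot be ordered against each other.

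c-Jun peaks were unevenly spaced. Of 3076 distances between neighbouring peak centres on the same autosome, the median was 240.9 kb and the mean 765.4 kb. The middle 50% ran from 65.6 to 725.3 kb. There were 37 distances under 1 kb, 231 (7.51%) under 10 kb and 995 (32.3%) under 100 kb, while 605 (19.7%) exceeded 1 Mb and 78 exceeded 5 Mb. Measured from each peak to its nearest neighbour on either side, the median was 94.0 kb, and 182 peaks (5.88%) had no other within 1 Mb. The sparser c-JunDN list had a median distance of 940.9 kb and a mean of 1848 kb, so the mean was 1.96 times the median there and 3.18 times the median for c-Jun. Of its distances, 6.88% were under 10 kb and 14.7% under 100 kb.

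**Figure D2:**
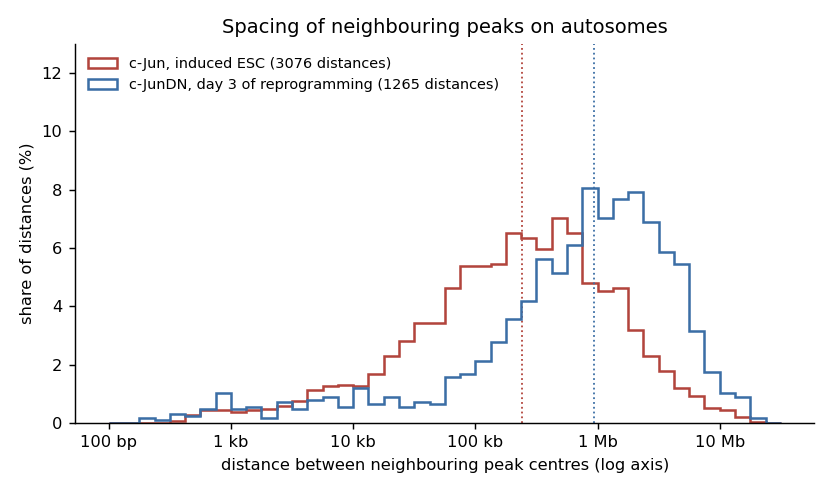
Histogram of distances between neighbouring peak centres on the same autosome (log axis) as a share of each list's distances in percent, with dotted lines at the medians. The c-Jun distances (red) centre on 240.9 kb and hold a larger share between 10 and 100 kb than the c-JunDN distances (blue), which centre on 940.9 kb.

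No 2 peaks overlapped, but some nearly touched. The smallest gap between edges was 2 bp, found between chr15:59386564-59387028 (score 71.8) and chr15:59387031-59387366 (54.4), and between chr17:56405339-56405759 (75.3) and chr17:56405762-56406152 (59.2). In all, 16 gaps were under 200 bp.

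The longest stretches without a c-Jun peak lay on chromosomes 7, 3 and 4. They ran for 18.9 Mb from 31785850 to 50654768 on chromosome 7, for 17.6 Mb from 9524765 to 27108673 on chromosome 3 and for 16.8 Mb from 65848392 to 82629204 on chromosome 4. The c-JunDN list had 4, 7 and 4 peaks inside these stretches, fewer per Mb than its 0.549 over the whole autosomal span.

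Peaks were joined into chains where the gap between neighbouring edges was at most 10 kb. This gave 200 chains with 439 peaks, 14.2% of the autosomal list (exact binomial 95% interval 13.0 to 15.5%, for counting error only). Of the chains, 167 held 2 peaks, 28 held 3, 4 held 4 and 1 held 5. They had a median length of 5.58 kb, and the longest spanned 19.0 kb. Chained and lone peaks had nearly the same scores and widths. The median score was 69.1 in chains and 66.8 alone, and the median width 431 and 418 bp. A score of at least 100 was found in 75 of 439 chained peaks (17.1%, interval 13.7 to 20.9%) and in 382 of 2656 lone peaks (14.4%, interval 13.1 to 15.8%), intervals that overlap. Scores of neighbours within 10 kb were close to unrelated (rho 0.12 over 239 pairs), as they were at over 1 Mb (0.05 over 605 pairs). The c-JunDN list had 127 of its peaks (9.89%) in 39 chains, 1 of which held 23.

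The largest chain lay on chromosome 4, from 55540959 to 55554935, and held 5 peaks in 14.0 kb. Its second peak was the 1288 bp region with the score of 3100. Before it, at a gap of 1.45 kb, stood the 216 bp peak that scored 241.7. After it followed chr4:55544373-55544728 (score 163.2) at a gap of 0.465 kb, chr4:55545702-55546065 (55.0) and chr4:55554534-55554935, which also scored 163.2. The limit on the origin of the fragments given for the region at 3100 applies to this chain.

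The second chain held 4 peaks in 5.46 kb on chromosome 1, and all of them were narrow and high. The peaks were chr1:153318725-153318962 (238 bp, score 150.3), chr1:153320183-153320494 (312 bp, 242.3), chr1:153323250-153323501 (252 bp, 256.1) and chr1:153323903-153324183 (281 bp, 103.6). Every one of them was narrower than 90% of all c-Jun peaks, and the first 3 also overlapped c-JunDN peaks. For this chain, too, genomic and introduced DNA were not told apart, and what gave its peaks this shape was not tested.

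The other chains of 4 scored closer to the rest of the list. The chain on chromosome 11, from 57669020 to 57678795, had scores of 61.7 to 126.4, and its last 3 peaks were separated by only 0.158 and 0.100 kb. The chain on chromosome 17, from 71069241 to 71088252, was the longest, with scores of 53.7 to 98.2. The chain on chromosome 10, from 21509878 to 21521896, had scores of 61.4 to 75.3.

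**Figure D3:**
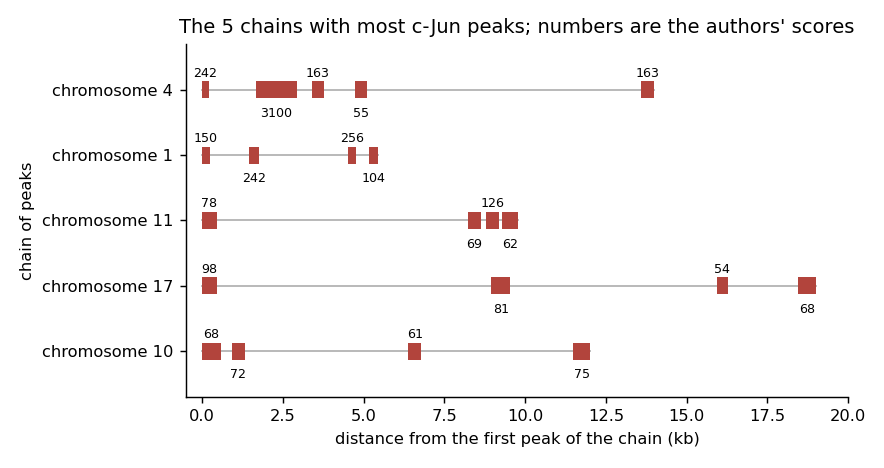
Peaks (red boxes, to scale) in the 5 chains with most c-Jun peaks, by distance in kb from the start of the chain, with the authors' score beside each peak. The chromosome 4 chain holds 5 peaks around a score of 3100, and the chromosome 1 chain packs 4 peaks into 5.46 kb.

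At the scale of 1 Mb, peaks were spread unevenly over windows. Of 2374 windows between the first and last peak of each autosome, 1144 (48.2%) held none. The 161 windows with 5 or more peaks (6.78%) held 1002 peaks, 32.4% of the list. The variance of the count per window was 2.52 times its mean. The densest window, at 129 to 130 Mb on chromosome 8, held 15 peaks with a median score of 64.9, 3 of them at 100 or above. Windows at 59 to 60 Mb on chromosome 15 and 119 to 120 Mb on chromosome 11 held 13 and 12 peaks. The window at 53 to 54 Mb on chromosome 19 held 11, with a median score of 88.4 and a highest of 246.4. Each of these 4 windows held 1 or 2 c-JunDN peaks.

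Chromosomes differed in peak density. The count per autosome ran from 99 on chromosome 14 to 250 on chromosome 2 and followed the length between the first and last peak (Pearson's r 0.80 over 19 autosomes, as a description). Per Mb of that length, the overall density was 1.31 peaks. Chromosome 19 was the densest, with 113 peaks or 1.95 per Mb (exact Poisson 95% interval 1.61 to 2.35), followed by chromosome 11 with 214 peaks or 1.82 per Mb (1.58 to 2.08). Chromosomes 15 and 17 followed, at 1.62 and 1.59 per Mb. Chromosome 14 was the sparsest, at 0.873 per Mb (0.709 to 1.06), so that chromosome 19 held 2.24 times as many per Mb. The interval lay above the overall density on 4 autosomes and below it on 3 (chromosomes 1, 3 and 14). These intervals cover independent counting only. The window counts varied more than that, so the intervals are too narrow. Restricting the list to scores of at least 100 left chromosome 19 the densest (0.328 per Mb, 19 peaks) and chromosome 14 the sparsest (0.115 per Mb, 13 peaks). These peaks are part of the same list, and their counts are small. Chromosome 11 followed closely at 0.297 per Mb, and chromosome 16 was nearly as sparse as chromosome 14, at 0.138 per Mb.

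Scores varied little between chromosomes. The median score per autosome ran from 65.2 on chromosome 2 to 73.4 on chromosome 6, and the middle 50% of chromosome 6 peaks, 56.2 to 93.9, spanned every other autosome's median. The share of peaks in chains ran from 3.92% on chromosome 18 (4 of 102 peaks) to 22.8% on chromosome 3 (36 of 158). In the c-JunDN list chromosome 11 was the densest, at 0.861 per Mb, and chromosome 19 stood at 0.421 per Mb, below that list's 0.549 overall. Spearman's rho of the 2 densities over 19 autosomes was 0.44, given as a description.

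**Figure D4:**
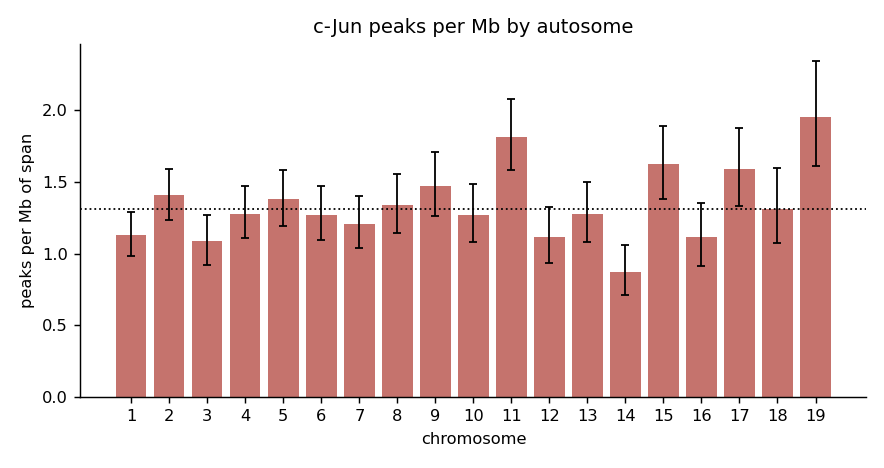
c-Jun peaks per Mb of the length between the first and last peak of each autosome, with exact Poisson 95% intervals for counting error and a dotted line at the overall 1.31 per Mb. Chromosomes 19 and 11 are highest at 1.95 and 1.82, and chromosome 14 is lowest at 0.873.

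Peaks were more frequent towards the high-coordinate end of the chromosomes. Mouse autosomes are acrocentric, and by convention coordinates start at the centromeric end. When each autosome's length between its first and last peak was divided into 10 equal parts, the last part held 520 peaks (16.8%, exact binomial 95% interval 15.5 to 18.2%) and the first part 211 (6.82%). On 17 of 19 autosomes the last part held more peaks than the first. Its share ran from 6.06% on chromosome 14 to 33.3% on chromosome 8. The median score of the last part, 66.8, equalled that of the whole list. Of the peaks with scores of at least 100, 67 of 457 (14.7%) lay in the last part and 20 (4.38%) in the first. The c-JunDN list also held its largest share in the last part, 219 peaks (17.1%), but its first part held 152 (11.8%).

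Few c-Jun peaks in ESC coincided with c-JunDN peaks in reprogramming cells. With 1 bp of overlap, 43 c-Jun peaks were shared, 1.39% of that list (exact binomial 95% interval 1.01 to 1.87%). They met 44 c-JunDN peaks, 3.43% of the other list (2.50 to 4.57%), since 1 c-Jun peak overlapped 2. Cell type, factor form and library differ between the lists together and cannot be told apart. The number of c-JunDN peaks also limits the share that c-Jun peaks can reach. From the c-JunDN names 176 numbers are missing, and any peaks behind them could not be compared. For scale, the c-Jun peaks cover 1347524 bp of an autosomal span of 2354 Mb between first and last peaks. The overlap that random placement would give was not computed, so these shares are not set against it. Over all c-Jun peaks, shared ones included, the median distance to the nearest c-JunDN peak was 451.9 kb. Of them, 98 (3.17%) had one within 10 kb and 499 (16.1%) within 100 kb.

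Where the lists met, the centres lay close, in part because the rule of 1 bp of overlap bounds their distance. The centres of shared peaks were a median of 41 bp apart and at most 247 bp, and 26 of 43 were within 50 bp. In 42 of 43 the c-JunDN peak lay wholly inside the wider c-Jun peak. The c-JunDN list has a median width of 143 bp, so some of this nesting follows from the widths. Shared c-Jun peaks had a median score of 90.7 (middle 50% from 67.2 to 133.8), against 66.8 (57.1 to 85.3) for the 3052 others. Their median width was 462 bp against 419 bp. In the 4 score classes, the number shared was 4, 7, 8 and 24 from lowest to highest, and in the highest class that was 3.10% (interval 2.00 to 4.58%) against 0.515% in the lowest (0.141 to 1.31%). Of the 100 highest c-Jun scores 10 were shared, and of the 10 highest 3. Those 3 included chr15:61820895-61821479 and chr1:153323250-153323501, for which genomic and introduced DNA were not told apart.

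**Figure D5:**
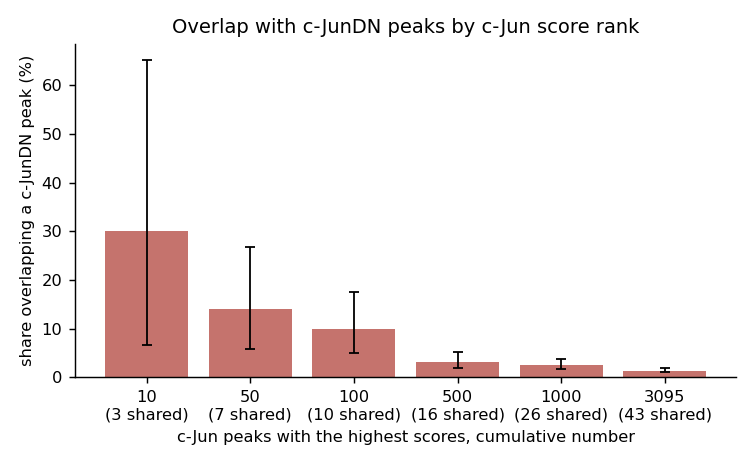
Share in percent of the highest-scoring c-Jun peaks that overlap a c-JunDN peak by at least 1 bp, for nested sets from the top 10 to all 3095, with exact binomial 95% intervals. The share falls from 30% (3 of 10) to 10% (10 of 100) and 1.39% (43 of 3095), and the smallest sets have wide intervals. Of the 3 shared peaks in the top 10, those on chromosomes 15 and 1 were not told apart from introduced DNA.

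The 10 shared peaks with the highest combined rank of both scores included sites on chromosomes 15, 1, 13, 6, 4, 17 and 19. At chr15:61820895-61821479 the c-Jun score was 289.6 and the c-JunDN score 169.9, and the c-JunDN peak covered 422 of 585 bp. This site is 1 of the chromosome 15 pair, so its overlap carries the same limit. The c-JunDN cells had been given Sox2, Klf4 and c-Myc, and whether introduced DNA lies behind this overlap was not tested. At chr1:153320183-153320494 the scores were 242.3 and 134.0, with centres 4.5 bp apart, and at chr1:153323250-153323501 they were 256.1 and 94.4. Both sites lie in the chromosome 1 chain, and the limit given for that chain applies to them. The site at chr13:45719092-45719664 scored 206.3 and 117.3, and chr15:95106895-95107526 scored 135.5 and 150.8. The site at chr17:66310715-66311658 had a c-Jun score of 449.9, below only the pair at 3100, and a c-JunDN score of 78.9. Its centres were the 247 bp apart that mark the largest offset. The scores were 91.3 for c-Jun and 226.1 for c-JunDN at chr4:140255460-140255910, and 98.85 and 133.65 at chr19:61301910-61302802. The lists share no known scale, so which of the scores at a site is larger has no reading. The others were chr6:137791926-137792281 (164.6 and 91.2) and chr4:125780285-125780775 (132.2 and 97.7). Over all 43 shared peaks, Spearman's rho between the scores was 0.39, as a description.

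Gene positions and sequence of the mm9 build were not used here, so genes near these peaks and motifs under them were not analysed.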

How the data were processed

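Peaks of 1 c-Jun sample of induced ESC were described, with 1 c-JunDN sample for comparison. Per the labels' protocols, cells were fixed in 1% formaldehyde, chromatin was sonicated and libraries were amplified for 18 cycles. Per the submitters' processing notes, bcl2fastq 2.15.0.4 and Bowtie2 2.2.3 were used, on build mm9. Peak names begin with MACS. Its version, settings and any use of the input are not given in the sources used here. The deposited score per peak is the authors', as are the peak edges. The list of c-JunDN peaks has names numbered to 1516, of which 1340 are in the list used here. The RNA values are the authors' deposited expected counts from RSEM 1.1.21, rounded here and divided by the library total to give CPM. Read depth of the immunoprecipitations is unknown.

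From the files, widths, neighbour distances, chains, densities and overlaps were computed in Python 3.11.15 with scipy 1.17.1, after tests on simulated peaks with known chains and overlaps. Starts were written 1-based, taking the files as BED. With 1 sample per list no test across samples was possible. Intervals are exact binomial or Poisson at 95% and cover counting error only. The named regions follow a rule: the 10 highest scores, the 5 widest, 5 narrowest and 5 lowest, the 5 chains with most peaks, the 3 longest stretches without a peak and the 10 shared peaks of highest summed rank. The 5 smallest gaps and the densest windows were added. The members and lists were chosen with earlier results of these data known. Alternatives changed the score minimum, the chain gap, the distance measure and the overlap rule. Those that need mm9 gene positions or chromosome lengths were not run.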

Additional observations from a re-analysis of the deposited data

Results flagged for a closer look

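Chromosome X lay outside the regions described and held 5 c-Jun peaks, which no comparison in the report used. They are 0.161% of the c-Jun list, against 35 peaks or 2.61% of the c-JunDN list. Over the 113.1 Mb between the first and last of them this is 0.0442 peaks per Mb (exact Poisson 95% interval 0.0144 to 0.103), below the lowest autosome, chromosome 14 at 0.873. The highest of them, chrX:103382014-103382575, scored 187.5 and overlapped a c-JunDN peak with a score of 174.2. The other 4 scored 50.4 to 83.8. The c-Jun list held no peak on chromosome Y and the c-JunDN list held 21. Whether rows on the sex chromosomes were filtered before deposit is not given in the sources used here. The c-Jun names are numbered to 3100, the number of peaks in that list, while 176 numbers are missing from the c-JunDN names. Whether peaks were numbered before or after any filter is not known.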

How the results depend on the processing

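Counts followed the score minimum and the distance rules by construction. With a score of at least 100 there were 457 peaks, with a median width of 515 bp, 9 chains holding 5.03% of peaks, a median spacing of 2057 kb, and 0.328 and 0.115 peaks per Mb on chromosomes 19 and 14. In the upper 1547 peaks by score the median width was 460 bp. A chain gap of 5 kb gave 129 chains with 8.92% of peaks, and one of 50 kb gave 467 with 35.8%. Requiring 50% of each peak to be covered left 11 shared peaks (0.355%), and a score of at least 100 in both lists left 4 (0.875% of the c-Jun peaks kept). The c-JunDN peaks are much narrower, so few can cover 50% of a c-Jun peak. Centres within 500 bp gave 44 shared peaks, and spacing between edges had a median of 240.5 kb. No paired analysis was possible because each list comes from 1 sample. Read depth behind the scores is unknown, and its bearing on how finely peaks can be ranked was not tested.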
